A study of Mus musculus with 5 samples.

Results

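Noncoding snoRNA host genes are transcribed into spliced RNAs that code for no protein but carry small nucleolar RNAs (snoRNAs) in their introns. The members considered were 9 such genes listed by symbol, namely Gas5, Snhg1, Snhg3, Snhg5, Snhg6, Snhg8, Snhg12, Snhg15 and Zfas1. A row was found for 8 of the 9 among the 22683 rows of the deposited expression table, and Snhg3 was not analysed here. Inside the coordinates of the 8 hosts, on the same strand, lay 22 of the table's 345 snoRNA rows, and each host was set beside the snoRNA rows it contained. RNA had been sequenced from quiescent satellite cells, the resting muscle stem cells, of wild-type mice (2 libraries, wild type 1 and 2) and of mdx mice (3 libraries, mdx 1 to 3). The mdx strain carries a nonsense mutation in the dystrophin gene Dmd and is a model of Duchenne muscular dystrophy. All 5 libraries came from cells purified by flow cytometry, 10000 to 20000 per library, and were made with 1 stranded low-input total RNA kit. The labels give no strain background, age, sex or sorting gate, and do not say whether the libraries of a group came from separate animals. P-values therefore measure the spread between these libraries.

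Most mammalian snoRNAs lie in introns and are released from the spliced-out intron by debranching and exonuclease trimming. Box C/D snoRNAs then guide 2'-O-methylation, and box H/ACA snoRNAs guide pseudouridylation, mainly of ribosomal RNA in the nucleolus. The spliced exons of noncoding hosts commonly begin with a 5' terminal oligopyrimidine (TOP) tract, as ribosomal protein mRNAs do, and are short lived because translation of their short reading frames exposes them to nonsense-mediated decay. Gas5, whose name stands for growth arrest specific, was described as a transcript that accumulates when growth or translation stops.

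The snoRNAs that the results turn on are shown here because they span the pattern: the most abundant one of Gas5 (Gm22357) and of Snhg1 (Gm25894), a Gas5 snoRNA near 0 in mdx (Snord47), the 1 row that stood higher in every mdx library (Snord78), the single snoRNA of Snhg6 (Snord87) and the single one of Snhg8 (Snora24). Their mm10 positions are chr1:161036057-161036139, chr19:8724251-8724325, chr1:161038082-161038158 and chr1:161036984-161037049 on the strand given for their hosts below, then chr1:9942463-9942549 and chr3:123507937-123508066, both on the minus strand. Sequences are the annotated transcripts of GENCODE M21 (GRCm38, the same assembly as mm10), 5' to 3', as DNA letters. Capitals mark a box C match (TGATGA within the first 20 bases), a box D match (CTGA within the last 20 bases) or, in Snora24, the ACA within the last 8 bases.
Gm22357: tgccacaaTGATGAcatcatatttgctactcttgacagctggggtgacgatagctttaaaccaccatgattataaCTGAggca
Gm25894: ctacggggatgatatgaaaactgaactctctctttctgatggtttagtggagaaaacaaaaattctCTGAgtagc
Snord47: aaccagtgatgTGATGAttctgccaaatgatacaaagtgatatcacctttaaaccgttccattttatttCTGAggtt
Snord78: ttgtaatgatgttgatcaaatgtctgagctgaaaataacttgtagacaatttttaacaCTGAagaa
Snord87: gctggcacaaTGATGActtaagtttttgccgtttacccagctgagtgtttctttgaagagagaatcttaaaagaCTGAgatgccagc
Snora24: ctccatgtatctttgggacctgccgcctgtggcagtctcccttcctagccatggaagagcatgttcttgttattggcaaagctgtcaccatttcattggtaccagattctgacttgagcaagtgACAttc
Both boxes were found in 16 of the 22 snoRNA rows inside the hosts (72.7%), against 99 of all 345 snoRNA rows (28.7%), which include the box H/ACA class. Box C was not matched letter for letter in Snord78 and Gm25894, and only these letters and windows were searched.

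The 3 snoRNAs of Zfas1 are shown as a group because they belong to 1 sequence family. They lie on the plus strand at chr2:167063473-167063565, chr2:167064998-167065086 and chr2:167065276-167065365, and capitals mark the longest run that all 3 share.
Gm25878: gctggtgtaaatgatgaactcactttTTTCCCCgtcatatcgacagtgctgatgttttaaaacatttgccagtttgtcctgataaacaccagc
Gm23201: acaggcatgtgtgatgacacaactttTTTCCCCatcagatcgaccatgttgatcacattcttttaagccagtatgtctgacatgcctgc
Snord12: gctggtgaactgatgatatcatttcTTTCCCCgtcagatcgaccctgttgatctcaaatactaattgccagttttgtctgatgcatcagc
The shared run of 7 bases occurs in 17 of the 1507 snoRNAs annotated in GENCODE M21. Of the 22 snoRNAs, Snord50b alone had another annotated snoRNA containing it or contained in it, so reads of that row could be divided between copies.

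Values are normalized counts, that is, reads per gene scaled by 1 factor per library. They summed to between 15217054 and 16825045 in wild type and between 12473348 and 15930638 in mdx. The sorted populations differed beyond these hosts. Of 10 satellite cell markers, 7 were called lower and 2 higher in mdx, with summed levels of 101172 to 110648 in wild type and 39444 to 56691 in mdx. Endothelial markers were called higher for 12 of 13 and lower for 1 (summed 3112 to 3671 against 27798 to 35701, 3 rows at 0 in both wild-type libraries). Macrophage markers were called higher for 11 of 13 (428 to 675 against 10845 to 16247, 6 rows at 0 in wild type). Fibro-adipogenic progenitor markers were called higher for 11 of 12 (23492 to 33764 against 95277 to 162754, 1 row at 0 in wild type). The remaining marker of that list, Dpt, was called lower, at 9675 and 9371 in wild type and 1852, 1757 and 2396 in mdx. Cell cycle genes were called higher for 8 of 12 and lower for none (833 to 1541 against 6393 to 14021, 1 row at 0 in wild type). Pericyte and smooth muscle markers were called higher for 4 of 9 and lower for 1 (10959 to 13802 against 19658 to 27114). Myofiber markers were called higher for 3 of 12 and lower for none (4158 to 5514 against 30476 to 72221). Ttn alone read 2475 and 2100 in wild type and 37164, 64744 and 23685 in mdx, and the median log2 fold change of the 12 was 0.68. Markers under 10 in both wild-type libraries passed the filter on low values (at least 10 in at least 2 libraries) through mdx alone. They could only be called higher and are included in these counts. Besides the rows at 0 they include Kdr (1 and 0 in wild type) of the endothelial list and Myh11 (2 and 0) of the pericyte and smooth muscle list. The part of the marked cell populations in the results below was not tested. Xist, transcribed from the inactive X chromosome, had values of 30235 and 30176 for wild type, against 0, 0 and 12 for mdx, while the Y-linked Uty had a value of 0 in each wild-type library and ranged from 584 to 724 in mdx. The labels give no sex, and genotype and sex cannot be told apart in these libraries.

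Most of the noncoding hosts were lower in the mdx libraries. Of the 8 hosts, 6 were called lower (Gas5, Snhg1, Zfas1, Snhg6, Snhg5 and Snhg12) and none higher, at a Benjamini-Hochberg adjusted p under 0.05 from limma, a linear model with a shared estimate of spread over all 18199 tested genes. The background over all tested genes was 10.3% called lower and 14.6% called higher. Every mdx library stood below both wild-type libraries for 7 of the 8 hosts, against 23.8% of all tested genes. The median log2 fold change of the 8 was -2.11, beside 0.13 for all tested genes. In bulk RNA, fewer cells of a type and less RNA per cell cannot be told apart. Of the 22 snoRNA rows, 21 overlap an annotated exon of their host, so host values may include snoRNA reads. The size of such a part was not tested.

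Gas5 (chr1:161034607-161038539, plus strand, mm10) had the highest mean normalized count of the hosts in wild type and in mdx, without regard to length. It is known besides its snoRNAs for an exonic decoy of the glucocorticoid receptor. Its normalized counts were 4973 and 10946 in wild type and 1150, 491 and 938 in mdx. The groups were well apart, although wild type 2 held more than wild type 1 by a wide margin. Gas5 fell by 3.19 on the log2 scale (SE 0.41, 95% interval -4.11 to -2.26, limma adjusted p = 0.000778), which is 9.10-fold lower. Snhg1 (chr19:8723475-8726443, plus strand), the host of the rRNA-processing snoRNA U22, read 2533 and 4124 in wild type and 474, 464 and 485 in mdx. Its mdx libraries were nearly equal, and all lay far below the lower wild-type library. The log2 difference of -2.76 (SE 0.26, interval from -3.35 to -2.17) had a limma adjusted p of 0.000154 and is 6.79-fold lower. Zfas1 (chr2:167062934-167065862, plus strand), which starts head to head with the protein-coding gene Znfx1, read 949 and 1781 in wild type and 259, 235 and 262 in mdx. The mdx libraries again agreed closely and did not overlap wild type. On the log2 scale it changed by -2.36 (SE 0.35, interval from -3.14 to -1.58, limma adjusted p = 0.00152), or 5.13-fold lower. These 3 hosts stayed called under every alternative setting that kept both wild-type libraries. Leaving out wild type 1 or wild type 2 gives no measure of wild-type spread, and Gas5 then changed by -3.75 and -2.62.

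Snhg6 (chr1:9941959-9944118, minus strand), the host of Snord87, had 567 and 430 in wild type and 26, 98 and 58 in mdx. Its mdx values were scattered but all far below wild type. It changed by -3.17 on the log2 scale (SE 0.66, interval from -4.66 to -1.67, limma adjusted p = 0.00870), about the size of that of Gas5 with a wider interval, and without mdx 3 the adjusted p was 0.0523. Snhg5 (chr9:88521050-88522929, minus strand), the host of the U50 snoRNAs, read 1347 and 1161 in wild type and 293, 410 and 574 in mdx. The 2 groups were separate, and mdx 3 was the nearest to wild type. Snhg5 changed by -1.60 (SE 0.33, interval from -2.35 to -0.86, limma adjusted p = 0.00819), with an adjusted p of 0.0524 without mdx 2 and 0.0678 without the mean trend and robust moderation. Snhg12 (chr4:132308678-132311024, plus strand) read 567 and 714 in wild type and 304, 215 and 344 in mdx. This was the smallest change among those called, -1.17 (SE 0.35, interval -1.97 to -0.37, limma adjusted p = 0.0405), and the least stable. Its call was lost in 9 of 14 alternative settings, among them leaving out wild type 2 (adjusted p = 0.155), mdx 1 (0.0873), mdx 2 (0.0926) or mdx 3 (0.0711).

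The other two hosts did not pass the test. Snhg15 (chr11:6527899-6528746, minus strand) read 138 and 258 in wild type and 72, 28 and 63 in mdx. Its groups did not overlap, but at these low values the log2 fold change of -1.86 had an interval of -3.51 to -0.21 and a limma adjusted p of 0.0936. Snhg8 (chr3:123507552-123508404, minus strand) read 316 and 148 in wild type and 125, 138 and 211 in mdx. It was the 1 host whose groups overlapped, since wild type 2 stood below mdx 3. Its log2 difference of -0.49 was within the spread of the libraries (interval -1.70 to 0.72, limma adjusted p = 0.539), and without wild type 1 it was 0.06.

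**Figure D1:**
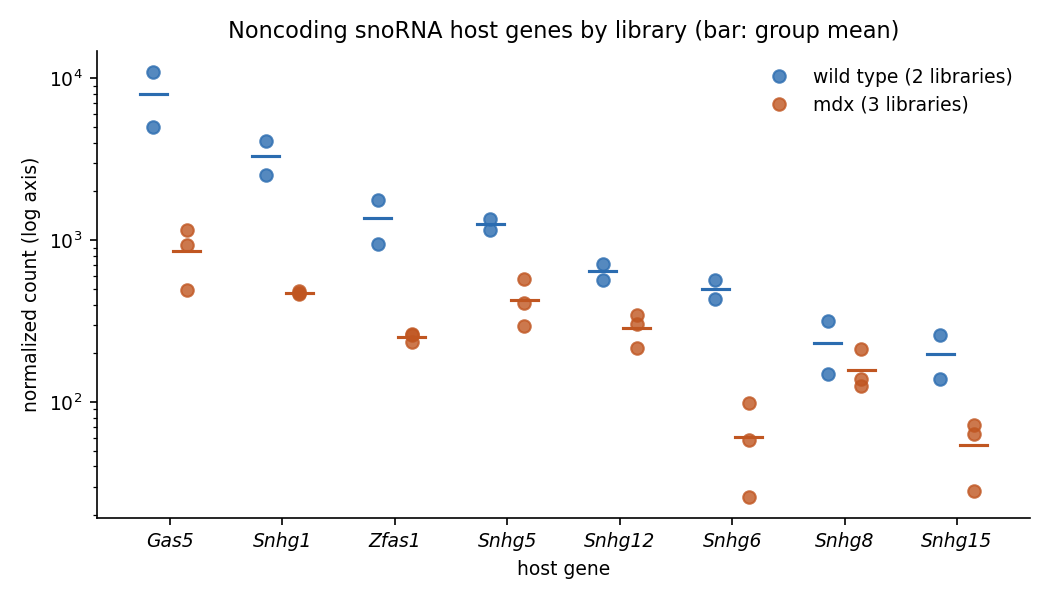
Normalized count (log axis) of each of the 8 host genes (x axis, ordered by wild-type mean) in the 2 wild-type libraries (blue) and 3 mdx libraries (orange), with bars at the group means. The mdx points lie below the wild-type points for every host shown except Snhg8, and the Snhg1 points of mdx nearly coincide at 464 to 485.

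Per kilobase of annotated exon, Gas5 had the highest wild-type mean, a normalized count of 2117 ± 1123 (SD, n = 2), followed by Snhg1 with 1121 ± 379. Snhg5 came next with 725 ± 76.0, then Zfas1 with 466 ± 201, Snhg6 with 435 ± 84.5, Snhg8 with 272 ± 139, Snhg12 with 267 ± 43.3 and Snhg15 with 146 ± 62.4. Gas5 and Snhg1, Zfas1 and Snhg6, and Snhg8 and Snhg12 were neighbours that differed by less than the larger SD, so the order within these pairs is not resolved. In mdx the order was different, with Snhg5 at 246 ± 81.6 (SD, n = 3), Gas5 at 229 ± 89.5, Snhg8 at 185 ± 54.3 and Snhg1 at 160 ± 3.54 leading, and no neighbours among these 4 differed by more than the larger SD. Snhg12 stood at 120 ± 27.5, Zfas1 at 86.0 ± 5.05, Snhg6 at 52.9 ± 31.5 and Snhg15 at 40.0 ± 17.1 per kilobase. Exon lengths are those of M21, where Gas5, Snhg12 and Snhg15 reach beyond the deposited coordinates. The levels of these hosts may therefore be too low. For Snhg15 the 1359 exon bases exceed the whole deposited span, so its place in either order is not resolved. The exons of all annotated transcripts together fill the whole M21 gene for Snhg1, Zfas1, Snhg8 and Snhg12. For Snhg6 they come to 1146 bases and leave much of the gene out. The divisor is therefore not alike between hosts, and both orders depend on it.

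The snoRNA rows inside the hosts were lower still in mdx. Of the 22, 20 passed the filter on low values (at least 10 in at least 2 libraries), 18 were called lower and none higher, read against the same backgrounds of 10.3% and 14.6%. Of the 20, 4 (Gm25789, Gm22744, Gm22680 and Snord87) passed the filter through wild type alone and could only be lower, and all 4 are among the 18. Among tested rows, 18 of 20 had a lower log2 fold change than their own host. The median log2 fold change was -6.29 over the 20 and -5.68 over the 18 that were not at 0 in a whole group, and the folds of rows near 0 in mdx depend on the added 2. After a correction for transcript length and GC content within each library, 4 rows were called lower (Gm22357, Gm25894, Snord47 and Snord87) and Gm22489, Gm23212 and Snord78 were called higher. The correction removes a trend with length, and snoRNAs make up 57.2% of the 414 tested rows under 150 bases. These calls are therefore relative to rows of like length and GC content, most of the short ones being snoRNAs. Without the correction most snoRNA rows of the table were lower in mdx: 174 of the 229 other snoRNA rows tested were called lower and none higher, with a median of -6.83 (-6.95 without the 43 at 0 in a whole group), so lower snoRNA rows were not limited to these hosts. Of those 229, 65 passed the filter through wild type alone and could only be lower, and 52 of the 65 are among the 174. All snoRNA rows together made up 15.4% and 18.8% of the library totals in wild type and 0.0503%, 0.0501% and 0.0458% in mdx. This share separated the groups in every library. Its part in the snoRNA folds and ratios was not tested, and a difference in library handling between the groups, of which the labels say nothing, cannot be told apart from genotype. Among snoRNA rows, those inside the hosts took 1.96% and 1.95% of the snoRNA sum in wild type and 10.8%, 14.98% and 11.1% in mdx.

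Gas5 contained 8 snoRNA rows, all with box D and typed as snoRNAs in the table, including Mir5117, which carries a microRNA symbol. In wild type they spanned mean normalized counts of 51.0 to 21266 although they come from 1 precursor. GENCODE M21 annotates 10 snoRNA genes inside Gas5, so its rows and their sum do not cover every annotated one. Gm22357, printed above, was the most abundant, with 16835 and 25696 in wild type and 133, 164 and 228 in mdx. This was a log2 difference of -6.91, with an SE of 0.29 and an interval of -7.58 to -6.24 (limma adjusted p = 3.04e-06), the smallest adjusted p of the 22 rows. Snord47, second in abundance, read 4731 and 7257 in wild type and 67, 0 and 4 in mdx. It came near 0 in 2 of the 3 mdx libraries, and its change of -9.29 (SE 1.26) had a limma adjusted p of 0.00102. Gm25789, the last snoRNA row of the host, read 681 and 793 against 2, 0 and 0. It passed the filter through wild type alone, so its direction was fixed and the size of its change, -8.19, depends on the added 2. The 6 rows of Gas5 other than Snord47 and Gm25789 were above 0 in every mdx library.

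Gm22489 read 2774 and 2709 in wild type and 131, 90 and 119 in mdx, a log2 fold change of -4.59 (limma adjusted p = 3.83e-05). Gm26224 read 966 and 1315 against 45, 88 and 24, a change of -4.56 (limma adjusted p = 0.000952). Mir5117 read 724 and 1200 against 131, 72 and 84, and Gm23212 read 390 and 416 against 25, 101 and 60. These last rows changed by -3.30 and -2.86 (limma adjusted p = 0.00122 and 0.0161), which is close to the change of the Gas5 row itself. Snord78, the lowest Gas5 snoRNA in wild type, read 26 and 76 there and 83, 160 and 99 in mdx. It was the 1 tested row with every mdx library above both wild-type libraries, but its log2 fold change of 1.26 (interval -0.48 to 3.00) did not pass the test (limma adjusted p = 0.263).

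**Figure D2:**
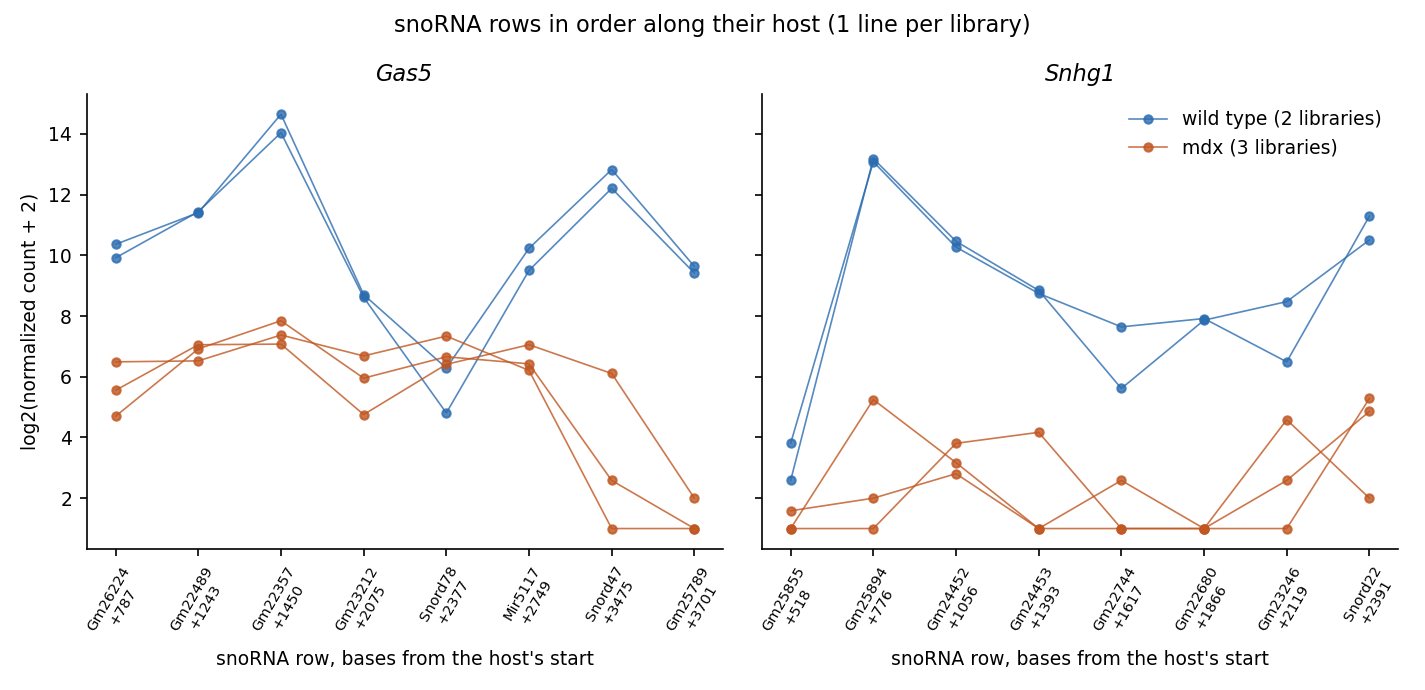
log2(normalized count + 2) of each snoRNA row of Gas5 (left) and Snhg1 (right) in order from the host's start (x axis, with the distance in bases), 1 line per library, wild type in blue and mdx in orange. The wild-type lines peak at Gm22357 and Snord47 in Gas5 and at Gm25894 in Snhg1, whereas the mdx lines stay low throughout and meet the wild-type lines only at Snord78.

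Snhg1 also contained 8 snoRNA rows, and in mdx their means ran from 0 to 22.0, lower than those of most Gas5 rows. Gm25894, printed above, was the most abundant, at 8669 and 9330 in wild type and 2, 36 and 0 in mdx. It changed by -10.39 on the log2 scale, with an SE of 1.10 and an interval of -12.88 to -7.89 (limma adjusted p = 0.000284). Snord22, which is U22 and is needed for maturation of 18S rRNA, read 2508 and 1452 in wild type and 27, 37 and 2 in mdx. Its change was -6.85 (SE 0.97, limma adjusted p = 0.00129). Both were thus abundant in each wild-type library and at 37 or less in each mdx library.

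Gm24452 read 1234 and 1410 in wild type and 5, 7 and 12 in mdx (log2 fold change -7.11, limma adjusted p = 0.000267). Gm24453 read 427 and 458 against 0, 0 and 16 (-6.74, limma adjusted p = 0.00568). Gm22680 read 240 and 231 in wild type but was listed at 0 in all 3 mdx libraries (limma adjusted p = 0.00336), so no fold is given. The wild-type libraries agreed closely for these rows. They did not for Gm22744, at 198 and 47 against 4, 0 and 0 (-5.10, limma adjusted p = 0.0238), or for Gm23246, at 88 and 354 against 4, 0 and 22 (-4.76, limma adjusted p = 0.0325). The call on Gm23246 was lost without wild type 2 (adjusted p = 0.243), mdx 1 (0.105), mdx 2 (0.0863) or mdx 3 (0.0514), and that on Gm22744 without mdx 2 (0.0652) or mdx 3 (0.0715). Gm25855, the first in the host, read 12 and 4 against 1, 0 and 0 and was too low to be tested. Gm22680 and Gm22744 passed the filter through wild type alone, so the direction of their calls was fixed.

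Zfas1 contained the 3 related snoRNAs printed above. Gm23201 read 1299 and 2004 in wild type and 17, 39 and 10 in mdx, a log2 fold change of -6.26 (SE 0.68, limma adjusted p = 0.000329). Snord12 read 1144 and 1621 against 45, 52 and 0, a change of -6.31 (SE 1.31, limma adjusted p = 0.00855). Gm25878 read 287 and 404 against 47, 53 and 0. All 3 were lowest in mdx 3, where Snord12 and Gm25878 were at 0, and the change of -4.29 in Gm25878 (interval -7.46 to -1.11) did not pass the test (limma adjusted p = 0.0535). Without mdx 3 the changes of Snord12 and Gm25878 were -4.76 and -2.72, both called (adjusted p = 0.00804 and 0.0399).

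The remaining hosts had at most 1 snoRNA row each. Snord87, inside Snhg6, read 1936 and 3711 in wild type and was listed at 0 in all 3 mdx libraries (limma adjusted p = 0.000130), while its host was still detected there at 26 to 98. Snora24, the 1 box H/ACA snoRNA among those printed, read 701 and 990 in wild type and 74, 37 and 20 in mdx inside Snhg8. It fell by 4.37 on the log2 scale (SE 0.65, interval -5.85 to -2.90, limma adjusted p = 0.00167) although its host did not pass the test. Snord50b, inside Snhg5, read 0 and 0 in wild type and 25, 0 and 9 in mdx and was not tested. It was the 1 row inside Snhg5, where GENCODE M21 annotates 2 snoRNA genes. No snoRNA row lay inside Snhg12 or Snhg15, where GENCODE M21 annotates 5 and 1 snoRNA genes, so those hosts were described alone.

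**Figure D3:**
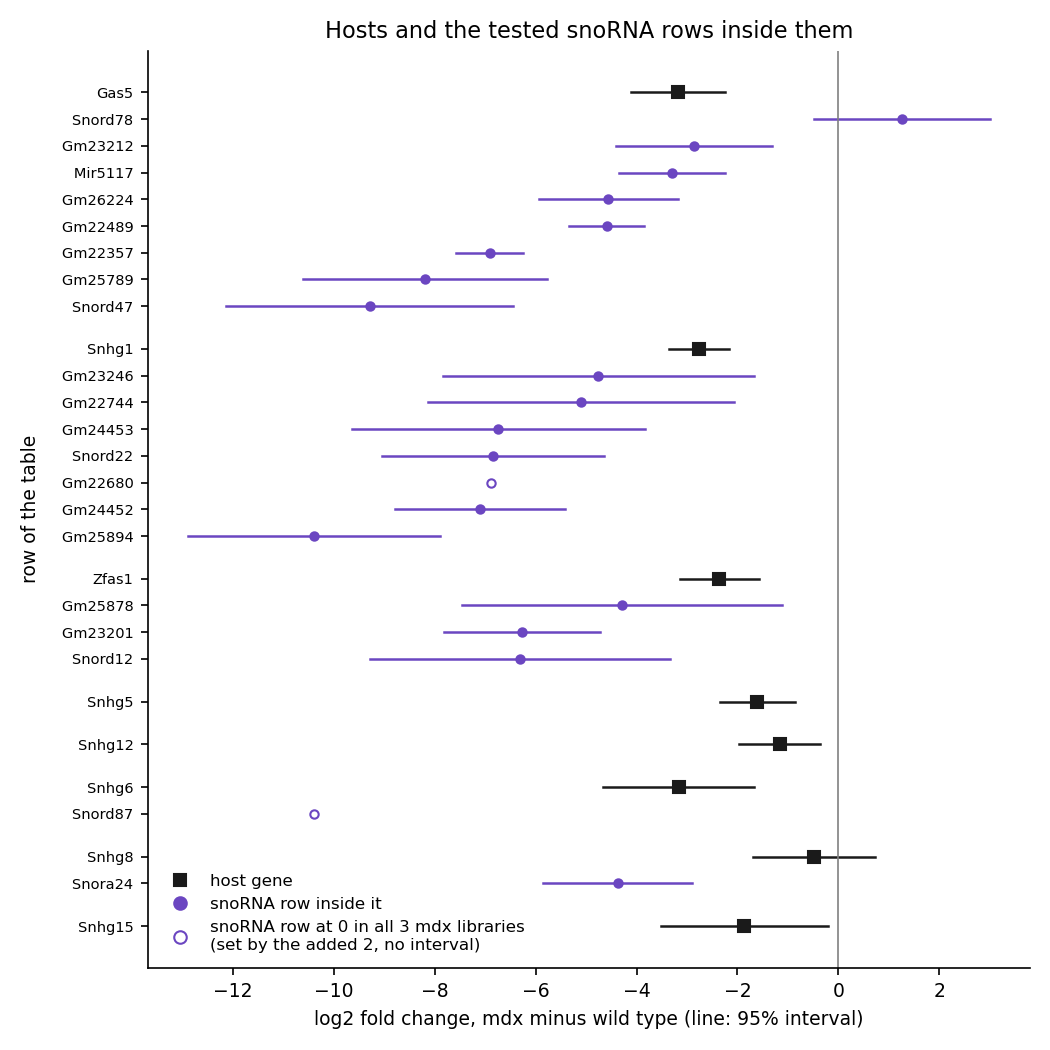
log2 fold change, mdx minus wild type (x axis, lines are 95% intervals), of each host (black squares) and of the tested snoRNA rows inside it (purple circles), grouped by host. Most snoRNA rows lie left of their host, Snord78 lies to the right of 0, and the open circles are Gm22680 and Snord87, which were at 0 in all mdx libraries, so that their place depends on the added 2.

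Whether a host and its snoRNAs moved by the same amount was tested as the log2 ratio of the summed snoRNA rows to the host row in each library, over the 148 genes of the table with a testable ratio. A snoRNA row was assigned to every gene that contains it. Some genes, such as Srcap and Gm42715 or Pcdhga1 and Pcdhga2, therefore share a snoRNA sum, and the 148 ratios are not all separate. The ratio was called lower in mdx for all 5 noncoding hosts that could be tested, but 80.4% of the 148 ratios were called lower, so this share says little about noncoding hosts as such. Of the 148, 36 had a snoRNA sum of at least 10 in no mdx library, which fixes the direction of the sum, and of the other 112 ratios 76.8% were called lower. For Snhg1 the snoRNAs summed to 5.28 and 3.22 times the host's normalized count in wild type and 0.0907, 0.172 and 0.107 times in mdx. The log2 ratio differed by -5.07 (SE 0.79, interval from -6.99 to -3.15, limma adjusted p = 0.00122). Of the alternatives that could be fitted and kept both wild-type libraries, it stayed called in all but the length and GC correction (-0.05, adjusted p = 0.964). For Gas5 the ratios were 5.45 and 3.61 in wild type and 0.537, 1.37 and 0.659 in mdx, a smaller difference of -2.49 (SE 0.83, interval -4.52 to -0.47, limma adjusted p = 0.0294). In Snhg1 the snoRNAs thus fell well below the host level in mdx, whereas in Gas5 they stayed near it; the difference between these 2 hosts was not tested.

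For Snhg8 the ratios were 2.22 and 6.69 in wild type and 0.592, 0.268 and 0.0948 in mdx (log2 difference -3.89, SE 1.07, limma adjusted p = 0.0142). For Zfas1 they were 2.88 and 2.26 against 0.421, 0.613 and 0.0382 (-3.48, SE 1.29, limma adjusted p = 0.0433). For Snhg6 they were 3.41 and 8.63 against 0 in all mdx libraries (limma adjusted p = 0.000637), but Snord87 passed the filter through wild type alone, so the direction of its sum was fixed and the count without it is 4 of 4. Every mdx ratio was below both wild-type ratios for all 5 hosts. The call on Gas5 was lost without wild type 1 (adjusted p = 0.267), wild type 2 (0.197), mdx 1 (0.0562) or mdx 3 (0.0655). That on Zfas1 was lost without wild type 1 (0.0976) or 2 (0.0902), that on Snhg8 without wild type 2 (0.154), and the ratio of Snhg6 could not be tested without either wild-type library. Of the 22 snoRNA rows, 21 overlap an annotated exon of their host, all but Snord87, and how reads in such overlaps were assigned is not given in the sources used here. Under the same correction for length and GC content, the ratio differences of Gas5 and Zfas1 changed sign (2.42 and 1.69, adjusted p = 0.0370 and 0.214).

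**Figure D4:**
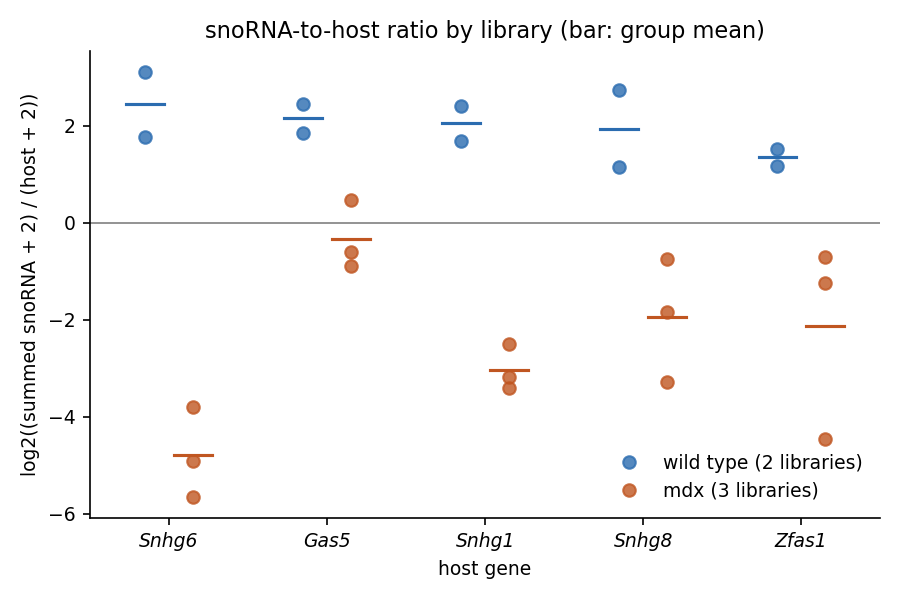
log2 ratio of the summed snoRNA rows to the host row (each with 2 added) for the 5 hosts with a testable ratio, in the 2 wild-type libraries (blue) and 3 mdx libraries (orange), with bars at the group means. All wild-type points lie above 0, where snoRNAs outnumber the host, and all mdx points but that of Gas5 in mdx 2 lie below it.

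Of 13 other noncoding snoRNA hosts listed, 9 had a row and 8 were tested, with 4 called lower and none higher (median log2 fold change -0.98). The imprinted Rian, which carries a cluster of box C/D snoRNAs, read 14524 and 5959 in wild type and 4148, 2825 and 2415 in mdx, a log2 fold change of -1.61 (limma adjusted p = 0.0121). Snhg4 read 123 and 600 against 22, 30 and 33, Dancr read 530 and 568 against 49, 0 and 24, and Snhg17 read 620 and 785 against 360, 248 and 303. These too were called lower (limma adjusted p = 0.0259, 0.0179 and 0.0278). Snhg20, Epb41l4aos, Snhg18 and Snhg14 had overlapping groups and did not pass the test.

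Among protein-coding genes with a snoRNA row inside, 57 of 163 were called lower and 20 higher, with a median of -0.39. Those called lower with the smallest p-values were ribosomal protein genes: Rps3 (log2 fold change -3.79), Rpl23 (-4.58), Rps2 (-2.35) and Rpl4 (-2.47). On the higher side stood the endothelial phosphatase Ptprb, which was listed at 0 in wild type, Prrc2a (1.90), Prrc2b (1.77) and the phagocytic receptor kinase Mertk (2.92). Ptprb passed the filter through mdx alone and could only be called higher. Of other long noncoding RNA rows, 57 of 1604 were called lower and 57 higher, with a median of 0.17.

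**Figure D5:**
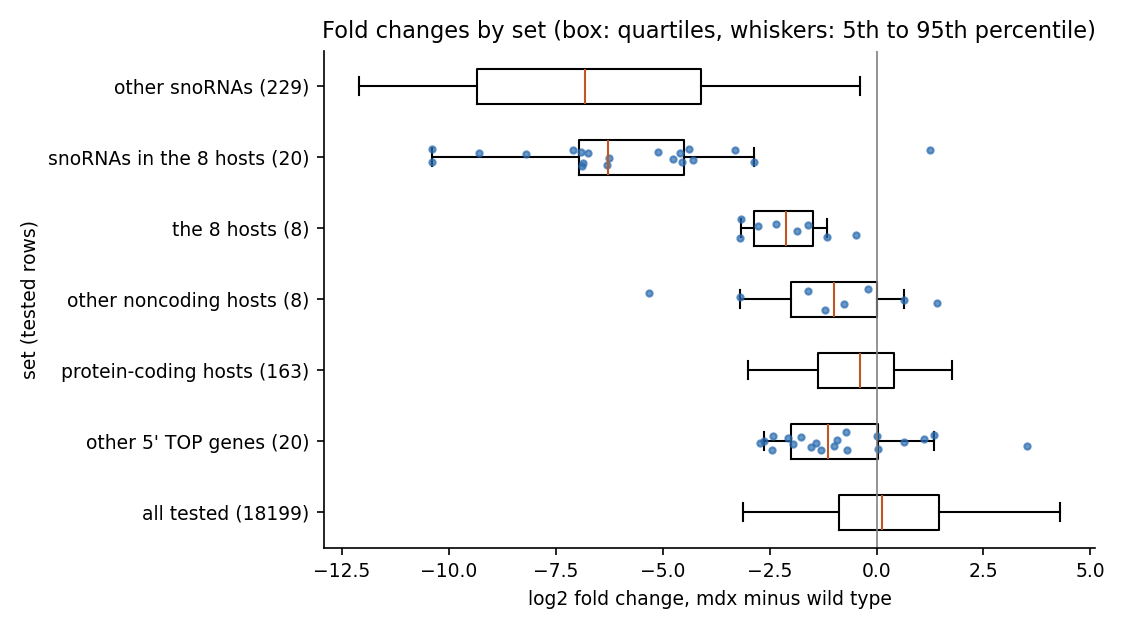
Fold changes (log2, mdx minus wild type) of the tested rows of 7 sets, with the number of rows in brackets; boxes are quartiles with the median in orange, whiskers the 5th and 95th percentiles, and blue points single rows of the small sets. The 8 hosts (median -2.11) lie between the snoRNA rows (medians -6.29 and -6.83) and all tested genes (0.13); rows at 0 in a whole group are included and their place depends on the added 2.

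Genes of the machinery around the hosts were read from fixed lists. Proteins of snoRNA particles and their assembly were called lower for 7 of 17 and higher for 1 (median -1.30). Nop58, a core protein of box C/D particles, read 9288 and 11043 in wild type and 3227, 2781 and 1549 in mdx, a log2 fold change of -2.07 (limma adjusted p = 0.00124). Fibrillarin, the methyltransferase of the same particle (Fbl), read 1041 and 1075 against 307, 172 and 212 (-2.23, limma adjusted p = 0.00230). Dkc1, the pseudouridine synthase of box H/ACA particles, changed by -1.44 (limma adjusted p = 0.0119).

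Of 18 nonsense-mediated decay factors, 2 were called lower (11.1%) and 3 higher (16.7%), shares near those of all tested genes (10.3% and 14.6%), with a median of 0.20. Upf1, the central helicase of the pathway, read 368 and 475 in wild type and 2574, 2097 and 2219 in mdx, 5.45-fold higher (log2 fold change 2.45, limma adjusted p = 0.000148). The decapping protein Dcp1a was also higher (1.11, limma adjusted p = 0.0220), and the decapping cofactor Pnrc2 was lower (-1.12, limma adjusted p = 0.00442).

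Genes with a TOP tract other than ribosomal protein genes were called lower for 13 of 20 and higher for 3 (median -1.15). The elongation factor genes Eef1a1 and Eef1d changed by -2.42 and -2.73 (limma adjusted p = 2.72e-05 and 5.53e-05), and Rack1, which encodes a protein of the small ribosomal subunit, by -2.45 (limma adjusted p = 9.08e-05). The growth kinase complex mTORC1 controls translation of TOP mRNAs. Genes of mTORC1 and of this translational control were called lower for 3 of 16 (18.8%) and higher for 6 (37.5%). The shares over all tested genes were 10.3% and 14.6%, and the median of the 16 was 0.50. Larp1, a protein that binds TOP mRNAs, rose by 1.66 and Mtor by 1.30 (limma adjusted p = 0.00101 and 0.00467), while Larp4 changed by -1.10 (limma adjusted p = 0.00471).

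Start sites were read for a pyrimidine tract because it is the sequence feature that TOP genes share. RefSeq (GRCm38.p6) windows from 10 bases before to 20 bases after each annotated start are shown for the 4 hosts with a row and a match, with the tract in capitals (a C followed by at least 4 more C or T). They are the second of 2 annotated starts of Gas5 (chr1:161035156-161035185, plus strand), Snhg12 (chr4:132308668-132308697, plus), Snhg8 (chr3:123508317-123508346, minus) and Snhg5 (chr9:88522878-88522907, minus).
Gas5: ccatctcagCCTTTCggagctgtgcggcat
Snhg12: ttctcagtCCTTTCTCgcttcatccgcggt
Snhg8: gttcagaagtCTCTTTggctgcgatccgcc
Snhg5: gcggtgaaccgggctcgttCTTTTacgacg
A tract was thus found in 4 of the 8 windows of these hosts, against 35.8% of all 32851 RefSeq windows of this length. Matches were accepted at any place in the window. They began at position -1 in Gas5, -2 in Snhg12, 1 in Snhg8 and 10 in Snhg5, where 1 is the annotated start. The 8 windows belong to 7 hosts, Gas5 having 2, and those of Snhg1, Snhg15 and Zfas1 held no match to this pattern. The Snhg1 window does hold a run of C and T (tttttcctt), which begins with T and was not matched. The 4 with a match include a host called lower by a large amount (Gas5), 2 called lower by less (Snhg5 and Snhg12) and 1 not called (Snhg8). A match describes these letters at an annotated start and not the start used in these cells.

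The genes whose pattern over the 5 libraries was most like the mean of the 8 hosts were Rplp0, Crbn, Chchd4 and Sem1. Likeness was the root mean square difference of log2(normalized count + 2), each gene centred on its own mean, which came to 0.0805, 0.0846, 0.0918 and 0.0979. Rplp0, a ribosomal stalk protein gene, read 45609 and 48390 in wild type and 11056, 9708 and 14211 in mdx. Among the hosts themselves, Zfas1 was nearest to the mean pattern (0.262), followed by Snhg5 (0.358) and Snhg1 (0.381), and Snhg6 (0.842) and Snhg8 (0.900) were farthest. The mean pattern is itself made of these hosts, so these distances are a description.

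A gene on the opposite strand overlapped 3 hosts. Zbtb37, across Gas5, read 748 and 716 in wild type and 755, 1055 and 721 in mdx and did not pass the test (limma adjusted p = 0.651). Mcmdc2, across Snhg6, read 33 and 25 against 130, 52 and 31 (limma adjusted p = 0.466). Znfx1, across Zfas1, moved the other way from its antisense partner, with 641 and 639 in wild type and 1519, 1739 and 1585 in mdx (log2 fold change 1.33, limma adjusted p = 0.00235). The kit keeps the strand, but the strand setting of the counting is not given in the sources used here, so reads of such pairs may not be fully separated.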

How the data were processed

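RNA-seq libraries of satellite cells from wild-type mice (2) and mdx mice (3) were compared. Per the submitters' processing notes, STAR 2.6.1d, featureCounts 1.6.3 and DESeq2 1.18.1 were used with build mm10. How strand, overlapping features and multi-mapping reads were treated in counting is not given in the sources used here. Values in the deposited table are a score, normalized counts that the authors rounded to whole numbers. Raw counts were not recoverable, so a log-scale model was used.

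Values were transformed to log2(normalized count + 2), which understates the change of low genes. Genes with at least 10 in at least 2 libraries (18199) entered a limma model (version 3.58.1, R 4.3.3) of genotype alone, with mean trend and robust moderation. Tests are two-sided, with Benjamini-Hochberg adjustment over every gene tested. The threshold was 0.05, and intervals are 95% intervals. The snoRNA-to-host ratio was fitted with limma over 148 genes, robust and without trend. Raw depth is not known, so no counting intervals are given. The script was tested on simulated data, where the share of false calls ran somewhat above the threshold, so calls near it are less certain than their adjusted p.

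The members, the lists and the tests were chosen with earlier results of these data known. Named were all hosts, all snoRNA rows inside them, up to 3 called genes with the smallest p of each list, the 4 called protein-coding hosts with the smallest p in each direction with a group mean of at least 100, and the 4 genes closest in profile. Remaining noncoding hosts, Snhg17 among them, and genes on the opposite strand were named after their values were seen. Of the identifiers, 22649 of 22683 are in GENCODE M21 and 17201 have the same coordinates there. Printed coordinates of hosts are those deposited, and exon lengths are from M21.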

Additional observations from a re-analysis of the deposited data

How the results depend on the processing

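With 2 wild-type libraries, the spread rests on few values, and with 1 of them left out the wild-type spread is not measured. The count of hosts called lower, 6, ranged from 4 to 6 over all alternatives (pseudocount 1 or 10, no or a stricter filter, CPM or quantile scaling, length and GC correction, no trend, a replicate block, each library left out), and none was called higher. Equal-total scaling moved the median of all tested genes from 0.13 to 0.32. The replicate numbers did not pair the libraries (correlations of deviations -0.0138 and -0.0173), and with the replicate block 4 hosts and 2 ratios were called, Snhg6 and Snhg12 not passing (adjusted p = 0.0594 and 0.113). The 5 ratios called lower became 1 with the length and GC correction, 3 with Snord symbols only (4 testable) and 1 with rows clear of host exons only (1 testable), and 1 to 5 when single libraries were left out. The length and GC correction reversed the sign of the Gas5 and Zfas1 ratio differences (2.42 and 1.69) and of Gm22489 (1.52), Gm22744 (0.61), Gm23212 (3.33), Gm23246 (0.89), Gm25878 (0.84), Gm26224 (0.81), Mir5117 (0.62) and Snhg8 (0.32), and gave 4 snoRNA rows inside the hosts called lower in place of 18. The correction fits a trend over transcripts, and snoRNAs make up 57.2% of the 414 tested rows under 150 bases. Snhg8 ranged from -1.03 to 0.0554 (without wild type 1) with single libraries left out. Over all genes, calls lower were 860 and higher 1163 with the block, against 1868 and 2659. Calls lower were 1150 without trend, 1186 without mdx 2 and 1112 without mdx 3. Calls higher were 1771 with the length and GC correction and 1709, 1491 and 1450 without mdx 1, 2 and 3. The cause of these shifts was not tested.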
